A study of Macaca fascicularis with 6 samples.

Results

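The genes that modify, fold and crosslink collagen were followed through single-cell transcriptomes of cynomolgus monkey cartilage. The set was chosen by function, with earlier results of these data known, as were the lists of other genes used below. It holds *P4HA1* and *P4HA2*, *PLOD1* and *PLOD2*, *P3H1*, *P3H2* and *CRTAP*, *SERPINH1*, and *LOX* and *LOXL2*. Of these 10 genes, 9 were listed among the 13950 genes of a differentiation matrix and the 14020 genes of a tissue matrix. *P4HA2*, an alternative catalytic subunit of prolyl 4-hydroxylase, had no row among the listed genes and was not analysed here.

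Collagen chains are hydroxylated on proline and lysine while they enter the endoplasmic reticulum, and only then wind into a stable triple helix. The prolyl and lysyl hydroxylases that do this need iron, oxoglutarate and ascorbic acid. Chaperones hold the folded trimer on its way to the Golgi, and after secretion the lysyl oxidases turn lysine and hydroxylysine side chains into aldehydes that crosslink the fibrils. In cartilage, where type II collagen has to last for most of a lifetime, hydroxylysine in the chain ends sets which crosslinks can form.

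The 5 conditions began with cynomolgus iPS cells (cyiPSC) and with cartilage organoids differentiated from them (pre-transplant cyiPS-Cart). The other 3 were harvested from knees 4 months after surgery, and were organoids placed in chondral defects (post-transplant cyiPS-Cart), undamaged joint cartilage (cyAC) and the fibrous tissue of defects that had been left empty (cyFT). The cyiPSC line 1466A1 is homozygous for the MHC and carries EGFP at the AAVS1 locus under the CAG promoter, and it was kept on mouse feeder cells. The organoids were made in a chondrogenic medium with ascorbic acid, BMP2, TGF-β1 and GDF5, so the hydroxylase cofactor was supplied to the pre-transplant cells. The recipient monkeys were 3 to 4 years old and MHC typing showed a mismatch with the organoids. The label of the post-transplant sample gives the wild-type genotype of the recipient, whereas the study describes its cells as descending from the EGFP donor line. All tissue was digested with a collagenase mixture before sorting. The digestion medium of pre-transplant organoids held TGF-β1, GDF5, BMP2 and ascorbic acid. For post-transplant and cyAC tissue another medium is given, without these additions. Condition and digestion medium thus cannot be told apart between pre-transplant cells and those samples. No digestion medium is named for cyFT.

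Each condition was 1 sample. For the harvest after surgery 3 monkeys per group were killed, and 2 transplanted sites of each were combined, but whether a library holds cells of all 3 was not stated in the sources used here. No test between conditions was therefore possible, no p value is given, and the 95% intervals beside the values (exact Poisson for reads, exact binomial for shares of cells, exact conditional for folds) cover counting error only. CyiPSC and pre-transplant cells came from the same library, cyAC and cyFT cells from another, and post-transplant cells from a library of their own, so that condition and library cannot be told apart in any comparison but those of cyiPSC with pre-transplant cells and of cyAC with cyFT. The differentiation matrix held 2500 cyiPSCs and 3527 pre-transplant cells, and the tissue matrix 320 cells each of pre-transplant, post-transplant, cyAC and cyFT. Of the 320 pre-transplant cells, 300 were also in the differentiation matrix, and up to 4 cell numbers recurred between any pair of libraries. Median reads per cell ranged from 27499.5 in cyFT to 143075 in cyiPSC. The levels below are reads summed over the cells of a sample per 1000000 reads of all listed genes (CPM). Shares are of cells with at least 1 read, also after thinning cells to the same number of reads. That number was 30967 in the differentiation matrix, where 60 cyiPSCs and 353 of the 3527 pre-transplant cells were shallower and left out, and 12191 in the tissue matrix, where 1 pre-transplant, 12 cyAC and 32 cyFT cells were.

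The cells carried the markers of their labels. Genes of a list of 7 chondrocyte markers summed to 75.8 CPM in cyiPSC and to between 33144 CPM (cyFT) and 76667 CPM (post-transplant) in the cartilage samples and cyFT. A list of 6 fibroblast markers summed to 51917 CPM in cyFT and 15855 CPM in cyAC, but also to 25762 CPM in pre-transplant and 78894 CPM in post-transplant cyiPS-Cart. Of 6 pluripotency markers 5 were listed, and they summed to 359 CPM in cyiPSC and 7.71 CPM in pre-transplant cells. Of 6 immune markers 5 were listed, and they summed to 430 CPM in cyFT, with *CD3E* at 0, 25.1 CPM in cyAC and at most 5.04 CPM elsewhere. At least 3 of them were found in 16 of the 320 cyFT cells and in at most 1 cell of any other sample. The 4 endothelial markers summed to 9.20 CPM in cyFT and 11.2 CPM in cyAC. In the cyiPSC sample, 52 cells held reads of at least 3 chondrocyte markers.

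Every listed member was higher in pre-transplant cyiPS-Cart than in cyiPSC. The lysyl hydroxylase gene *PLOD2* and the lysyl oxidase gene *LOX* had the largest ratios. A log2 ratio of (CPM + 1) of at least 1 was counted as higher, and 9 of 9 members passed it, where 16.5% did so of the 8576 genes that reached 10 CPM in one of the samples. None was lower, against 37.4% of those genes. The median log2 ratio was 3.15 over the members and -0.61 over all genes tested. Because the members were chosen with earlier results of these data known, these shares describe the set and are no test of it.

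**Figure D1:**
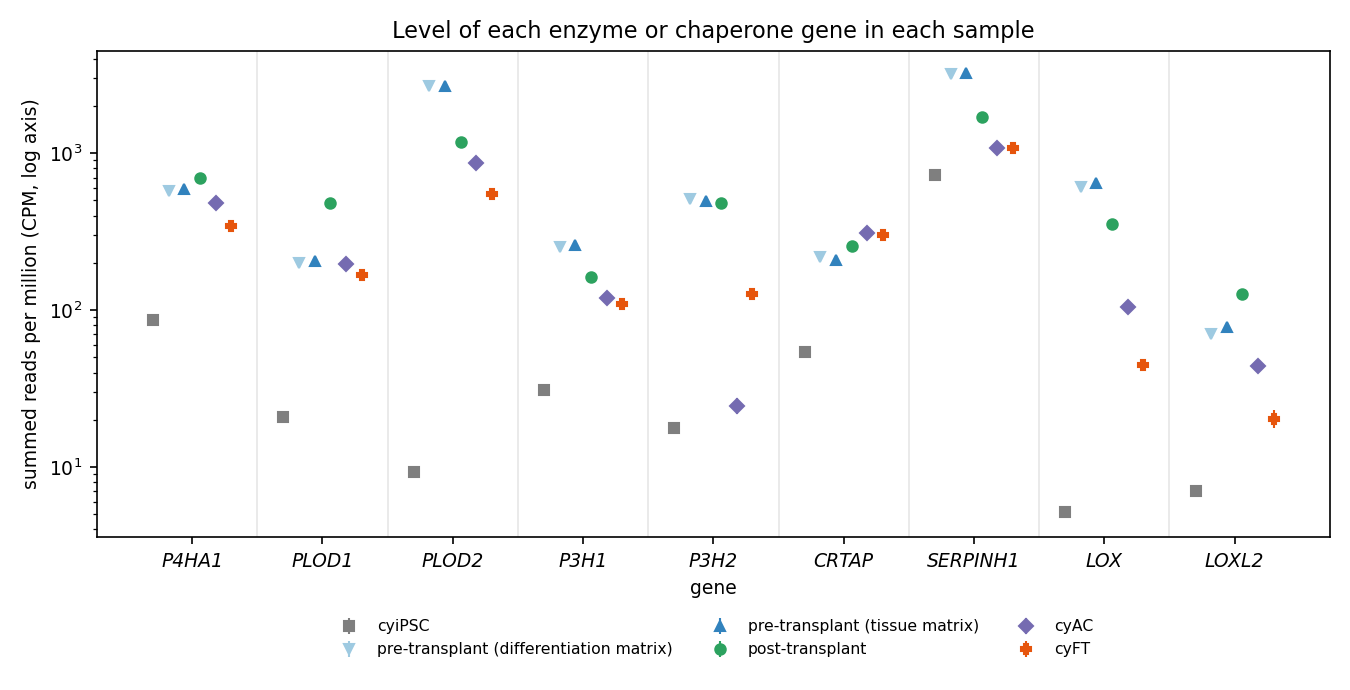
Summed CPM (log axis) of the 9 listed genes in cyiPSC, pre-transplant cyiPS-Cart of each matrix, post-transplant cyiPS-Cart, cyAC and cyFT, with exact Poisson 95% intervals that are mostly smaller than the markers. CyiPSC is the lowest sample for every gene, and both sets of pre-transplant cells lie close together.

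*PLOD2*, which hydroxylates lysines in the chain ends of collagen, was at 9.28 CPM in cyiPSC (8.99 to 9.58) and 2694 CPM in pre-transplant cells (2688 to 2701). In the tissue matrix it was at 2661 CPM in pre-transplant, 1182 CPM in post-transplant, 867 CPM in cyAC and 550 CPM in cyFT cells. The pre-transplant cells stood highest, cyFT was the lowest of the 4 tissue samples, and no counting intervals overlapped. The rise from cyiPSC was 290-fold (281 to 300), a log2 ratio of 8.03, and 0.21% of the genes tested had a larger one. Of the cyiPSCs, 3.96% held *PLOD2* reads (3.23 to 4.80), while 98.3% of pre-transplant cells did (97.8 to 98.7), and thinning gave 3.73% and 99.2%.

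The fold for *PLOD2* depends on a low cyiPSC value that rests on few cells. The lowest count above 0 was 22 reads in that library, and 7 for *LOX*, where the authors' background correction sets low counts of highly expressed genes to 0. The 52 cyiPSCs with chondrocyte markers held 42.3% of the *PLOD2* reads of that sample and 22.0% of the *LOX* reads, and without them *PLOD2* was at 5.55 CPM and the log2 ratio at 8.68. *ACAN*, a cartilage gene that iPS cells should lack, had reads in 2.36% of cyiPSCs (1.80 to 3.03), at 5.31 CPM, but with a lowest count above 0 of 16 its low counts had also been set to 0, so it gives no full measure of free RNA. *NANOG*, a pluripotency gene whose lowest count was 1, had reads in 1.98% of pre-transplant cells (1.55 to 2.50). The part of free RNA and of misassigned cells in the cyiPSC values of *PLOD2* and *LOX* was not tested.

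*PLOD1* encodes the lysyl hydroxylase that acts mainly on the helical part of the chain. Its levels were 20.7 CPM in cyiPSC and 201 CPM in pre-transplant cells of the differentiation matrix, and 205, 483, 197 and 168 CPM in pre-transplant, post-transplant, cyAC and cyFT cells of the tissue matrix. Post-transplant cyiPS-Cart was thus the only sample far above the rest, and its reads were found in 90.9% of both pre- and post-transplant cells. *PLOD3*, the remaining lysyl hydroxylase gene, is no member of the set and was named after its values were seen. It was at 30.7 CPM in cyiPSC, and at 136, 89.6, 41.6 and 61.4 CPM in the tissue samples in the same order. The balance of *PLOD2* and *PLOD1* reads differed between samples. There were 0.449 *PLOD2* reads for each *PLOD1* read in cyiPSC (0.432 to 0.466) and 13.0 in pre-transplant cells (12.6 to 13.4). The ratio was 2.45 in post-transplant cells (2.401 to 2.496), 4.41 in cyAC (4.22 to 4.62) and 3.26 in cyFT (3.10 to 3.44). Because the lengths of the 2 transcripts were not corrected for, the ratio compares samples and not the amounts of the 2 enzymes.

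*P4HA1*, the catalytic subunit of the prolyl 4-hydroxylase that stabilises the triple helix, was the most even of the hydroxylases over the tissue samples. It was at 86.2 CPM in cyiPSC and 572 CPM in pre-transplant cells, 6.63-fold higher (6.56 to 6.71). The tissue samples had 595 CPM before and 695 CPM after transplantation, 479 CPM in cyAC and 343 CPM in cyFT. Its reads were found in at least 79.7% of the cells of every sample, also of cyiPSC, where the share was 93.7%. Among the tissue comparisons made, its log2 ratios ran from -0.48 (cyFT over cyAC) to 0.54 (post-transplant over cyAC), none of them past 1. The highest and lowest levels, of post-transplant cells and cyFT, were not compared with each other.

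*P3H1* and *CRTAP* encode partners in the complex that 3-hydroxylates prolines of fibrillar collagen, yet their levels did not run together. *P3H1* was at 30.8 CPM in cyiPSC and 253 CPM in pre-transplant cells, and then at 260, 162, 120 and 109 CPM in pre-transplant, post-transplant, cyAC and cyFT cells. *CRTAP*, the helper subunit without catalytic activity, was at 54.2 and 219 CPM, and then at 209, 256, 312 and 302 CPM in the same order. One gene was thus highest before transplantation and the other in the joint tissues. The ratio of *P3H1* to *CRTAP* reads was 0.569 in cyiPSC (0.557 to 0.581), 1.24 in pre-transplant cells (1.19 to 1.29), 0.632 in post-transplant cells (0.610 to 0.655), 0.384 in cyAC (0.361 to 0.409) and 0.359 in cyFT (0.336 to 0.384). The last pair overlap in their counting intervals.

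*P3H2*, a related prolyl 3-hydroxylase, had the widest range in the tissue matrix. It was at 17.6 CPM in cyiPSC and 513 CPM in pre-transplant cells, 29.1-fold higher (28.4 to 29.8). In the tissue matrix it was at 497 CPM in pre-transplant cells (488 to 507), 485 CPM in post-transplant cells (477 to 493), 24.6 CPM in cyAC (21.9 to 27.6) and 126 CPM in cyFT (120 to 133). Both organoid samples were high and nearly level, and native cartilage was low. Reads were found in 91.9% and 89.1% of pre- and post-transplant cells, 15% of cyAC cells (11.3 to 19.4) and 41.9% of cyFT cells (36.4 to 47.5). After thinning these shares were 85.9%, 84.1%, 7.79% and 35.4%. In cyAC the 10% of cells with the most *P3H2* reads held 94.5% of them, against 35.7% in post-transplant cells. For each *P3H1* read there were 0.571 *P3H2* reads in cyiPSC, 1.92 in pre-transplant, 3.00 in post-transplant, 0.205 in cyAC and 1.16 in cyFT cells.

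*SERPINH1* encodes HSP47, the collagen chaperone of the endoplasmic reticulum. It was already at 728 CPM in cyiPSC, with reads in 99.8% of the cells, and at 3189 CPM in pre-transplant cells, 4.38-fold higher (4.37 to 4.40). The tissue samples had 3227 CPM before and 1712 CPM after transplantation, 1074 CPM in cyAC and 1087 CPM in cyFT. At least 96.9% of the cells of every sample held its reads, so that the samples differed in the amount per cell rather than in the share of cells. Its median in single cells was 3113 CPM in pre-transplant, 1538 CPM in post-transplant, 954.1 CPM in cyAC and 993 CPM in cyFT cells.

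Among the lysyl oxidases, *LOX* was at 5.15 CPM in cyiPSC (4.94 to 5.37) and 612 CPM in pre-transplant cells (608 to 615), 119-fold higher (114 to 124). Its log2 ratio of 6.64 became 5.66 with the mean of per-cell CPM, which weighs all cells alike. The tissue levels were 649, 354, 105 and 45.0 CPM in pre-transplant, post-transplant, cyAC and cyFT cells. The counting intervals of these 4 levels did not overlap. Its reads were seen in 4.44% of cyiPSCs, and in 86.3%, 78.1%, 45.6% and 26.9% of the tissue samples in that order, and in 85.0%, 68.4%, 35.7% and 19.1% after thinning. *LOXL2*, a second enzyme of the family, was at 7.02 CPM in cyiPSC and 70.4 CPM in pre-transplant cells, and at 78.0, 126, 44.3 and 20.2 CPM in the tissue samples. Unlike *LOX* it was highest after transplantation, and the ratio of *LOX* to *LOXL2* reads was 8.33 before (7.91 to 8.77) and 2.80 after (2.70 to 2.91), against 2.38 in cyAC (2.14 to 2.64) and 2.23 in cyFT (1.90 to 2.62).

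**Figure D2:**
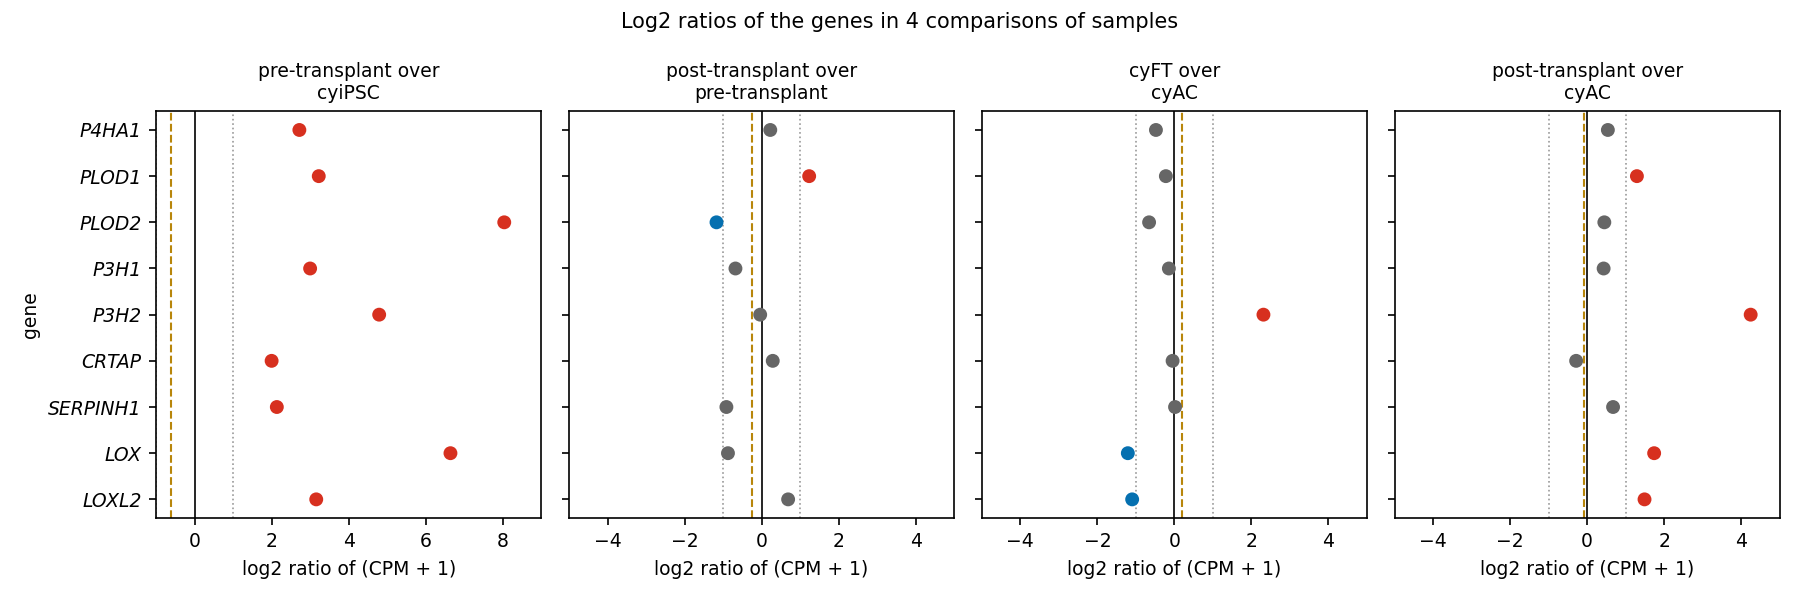
Log2 ratio of (CPM + 1) of each gene in the 4 comparisons, with red points at 1 or more, blue points at -1 or less, grey points between, dotted lines at 1 and -1 and a dashed line at the median of all genes tested. The 9 points of pre-transplant over cyiPSC all lie past 1, and *P3H2* stands apart in both comparisons with cyAC.

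Before and after transplantation, *PLOD1* and *PLOD2* differed in opposite directions. *PLOD3* had a log2 ratio of -0.60. *PLOD1* was 2.36-fold higher in post- than in pre-transplant cells (2.28 to 2.44), a log2 ratio of 1.23, and *PLOD2* 2.25-fold lower (2.22 to 2.28), a log2 ratio of -1.17. These were the 2 members past the threshold, 1 in each direction, where 8.92% of 7587 genes were higher and 18.5% lower. The sum of the fibroblast markers, 25762 CPM before and 78894 CPM after transplantation, also differed, and its part in these values was not tested. With TMM scaling, which puts the median gene near 0, *PLOD2* was at -0.95 and no longer passed. The log2 ratios of the other members were -0.91 for *SERPINH1*, -0.87 for *LOX*, -0.68 for *P3H1*, -0.04 for *P3H2*, 0.23 for *P4HA1*, 0.29 for *CRTAP* and 0.69 for *LOXL2*. Their median with both lysyl hydroxylases was -0.04, and that of all genes tested -0.25. For *P3H2* the ratio of levels was 0.975 (0.951 to 1.00).

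Fibrous tissue and intact cartilage, which shared a library, differed most in *P3H2*, the 3-hydroxylase gene. It was 5.13-fold higher in cyFT (4.52 to 5.84), a log2 ratio of 2.31. Both lysyl oxidases were lower in cyFT, *LOX* 2.34-fold (2.11 to 2.60) and *LOXL2* 2.19-fold (1.87 to 2.58). These were 1 member higher, where 12.2% of 7900 genes were, and 2 members lower, where 3.92% of the genes were. *LOXL2* rested on 524 reads in cyAC and 224 in cyFT, and its log2 ratio ran from -1.27 to -0.85 over the settings tried, and was -1.47 when only cells with *COL2A1* and no *COL1A1* reads were kept. For the chaperone and the helper subunit the interval included 1. The level of *SERPINH1* in cyFT was 1.01 times that in cyAC (0.987 to 1.04) and that of *CRTAP* 0.968 times (0.924 to 1.01). Leaving out the 16 cyFT cells and the 1 cyAC cell with immune markers, a step chosen after the data had been seen, gave log2 ratios of 2.33 for *P3H2*, -1.02 for *LOXL2* and -0.57 for *PLOD2*. Over all cells *PLOD2* had a log2 ratio of -0.66, *P4HA1* of -0.48, *PLOD1* of -0.22 and *P3H1* of -0.14, and the last pair became 0.16 and 0.27 when each cell was given the same weight. The median was -0.22 over the members and 0.19 over all genes tested.

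Transplanted organoids stood above native cartilage in 4 members. *P3H2* was 19.7-fold higher in post-transplant cells than in cyAC (17.5 to 22.2), and 0.21% of the genes tested had a larger ratio. *LOX* was 3.36-fold higher (3.17 to 3.57), *LOXL2* 2.85-fold (2.60 to 3.13) and *PLOD1* 2.46-fold (2.35 to 2.57). Such ratios were reached by 10.7% of 7621 genes, and no member was among the 15.8% that were lower. The fibroblast markers summed to 78894 CPM in post-transplant cells and 15855 CPM in cyAC, and their part in these values was not tested. The other log2 ratios were 0.67 for *SERPINH1*, 0.54 for *P4HA1*, 0.45 for *PLOD2*, 0.43 for *P3H1* and -0.29 for *CRTAP*. This comparison shares its post-transplant sample with the one before and after transplantation, and its cyAC sample with that of fibrous tissue, so that the sets of values are not independent.

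The reads of the members were also set against those of their substrates. Reads of the 36 listed collagen genes made up 0.0592% of cyiPSC reads, 7.24% and 7.47% of pre-transplant reads in the 2 matrices, 15.4% in post-transplant cyiPS-Cart, 8.10% in cyAC and 8.45% in cyFT. The 9 members together had 959 CPM in cyiPSC, 8381 CPM in pre-transplant, 5454 CPM in post-transplant, 3222 CPM in cyAC and 2750 CPM in cyFT cells. Across transplantation the collagen share thus had a log2 ratio of 1.04, and the summed members one of -0.62.

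**Figure D3:**
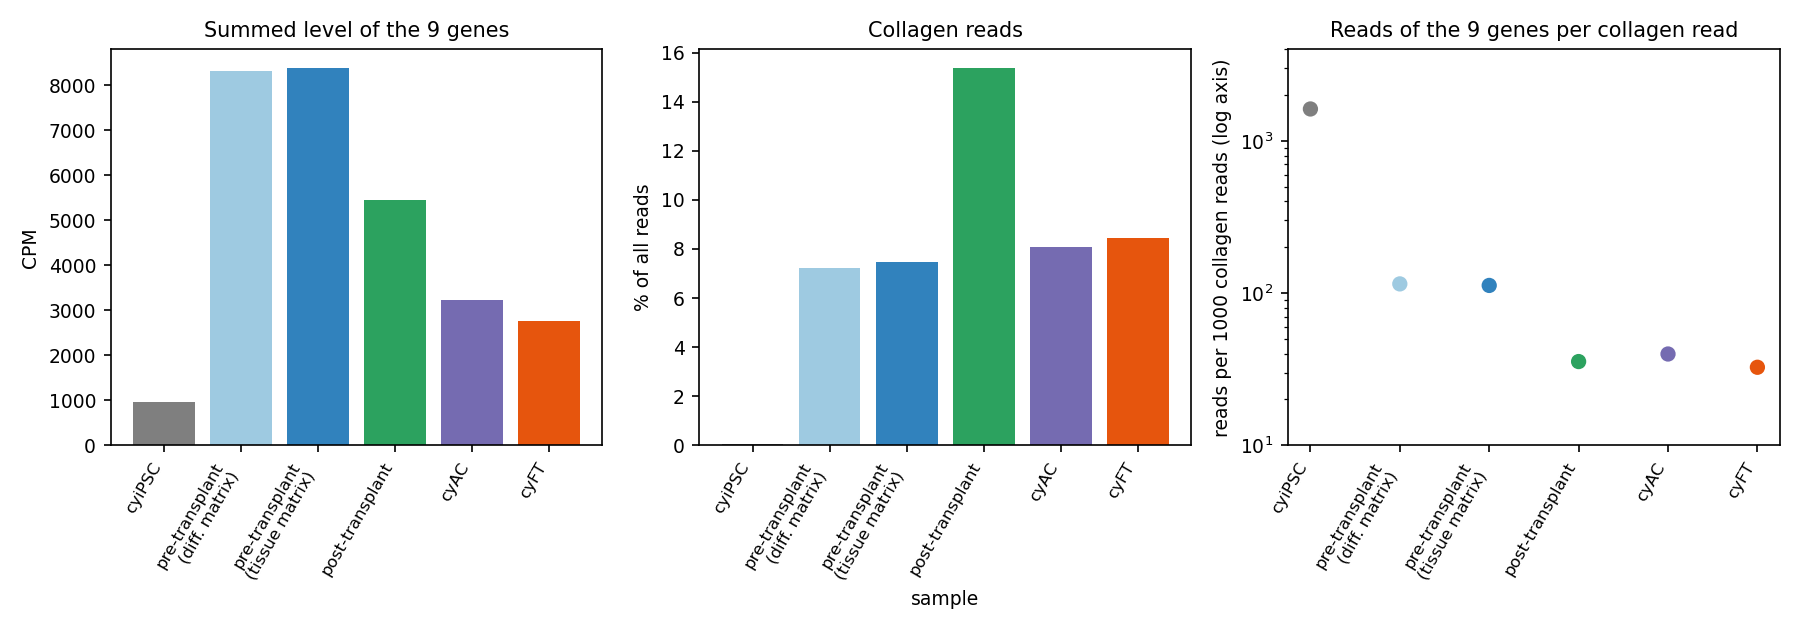
Summed level of the 9 genes in CPM, collagen reads as a percentage of all reads, and reads of the 9 genes per 1000 collagen reads (log axis), each for the 6 sets of cells. The post-transplant sample has the highest collagen share, 15.4%, and lies with cyAC and cyFT between 32.5 and 39.8 member reads per 1000 collagen reads.

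For every 1000 collagen reads there were 1621 member reads in cyiPSC, 115 and 112 in pre-transplant cells of the differentiation and tissue matrices, 35.5 in post-transplant cells, 39.8 in cyAC and 32.5 in cyFT. On these sums the post-transplant value lay between those of cyAC and cyFT, as did the median over cells, at 35.2 against 40.8 and 34.4. With the mean over cells it lay below both, at 37.0 against 50.5 and 80.1. *SERPINH1* held 75.9% of the member reads in cyiPSC and between 31.4% and 39.5% in the other samples. Without it the series ran 391, 70.9 and 69.0, 24.3, 26.5 and 19.7. The collagens behind the denominator were not the same in each sample. *COL2A1* gave 40.4% of collagen reads in pre-transplant, 32.2% in post-transplant, 58.5% in cyAC and 24.6% in cyFT cells. In the same order *COL1A1* gave 9.40%, 6.61%, 1.48% and 21.5%. *COL1A2* gave 5.17%, 16.8%, 2.42% and 21.6%, and *COL3A1* 15.8%, 22.5%, 6.39% and 12.1%. The log2 ratio of cyFT over cyAC, -0.29, turned to 0.67 with the mean over cells, while the medians kept the order of the sums. In cyFT 33 cells held no reads of *COL2A1* or *COL1A1*, and collagen made up 0.431% of their reads.

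The lysyl hydroxylases may also be given per collagen read, a scaling that moves every member by the same amount in a comparison and leaves their order as it was. *PLOD2* went from 35.6 reads per 1000 collagen reads before transplantation to 7.69 after it, a log2 ratio of -2.21, and was at 10.7 in cyAC and 6.50 in cyFT. *PLOD1* was at 2.74 before and 3.14 after it, a log2 ratio of 0.20, and at 2.43 in cyAC and 1.99 in cyFT.

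Single cells were then grouped by the collagen they expressed. The groups are defined by reads alone, *COL2A1* for the fibrils of cartilage and *COL1A1* for those of fibrous tissue, and are ranges rather than cell types. Cells with *COL2A1* reads and no *COL1A1* reads numbered 242 in pre-transplant, 265 in post-transplant, 276 in cyAC and 84 in cyFT. Those with *COL1A1* reads and no *COL2A1* reads numbered 19, 7, 16 and 170. A count of 0 for either gene here includes low counts that the authors' background correction had set to 0. In cyFT, the sample with enough of both, the median depth was 47802.5 reads in the first group and 21830 in the second.

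**Figure D4:**
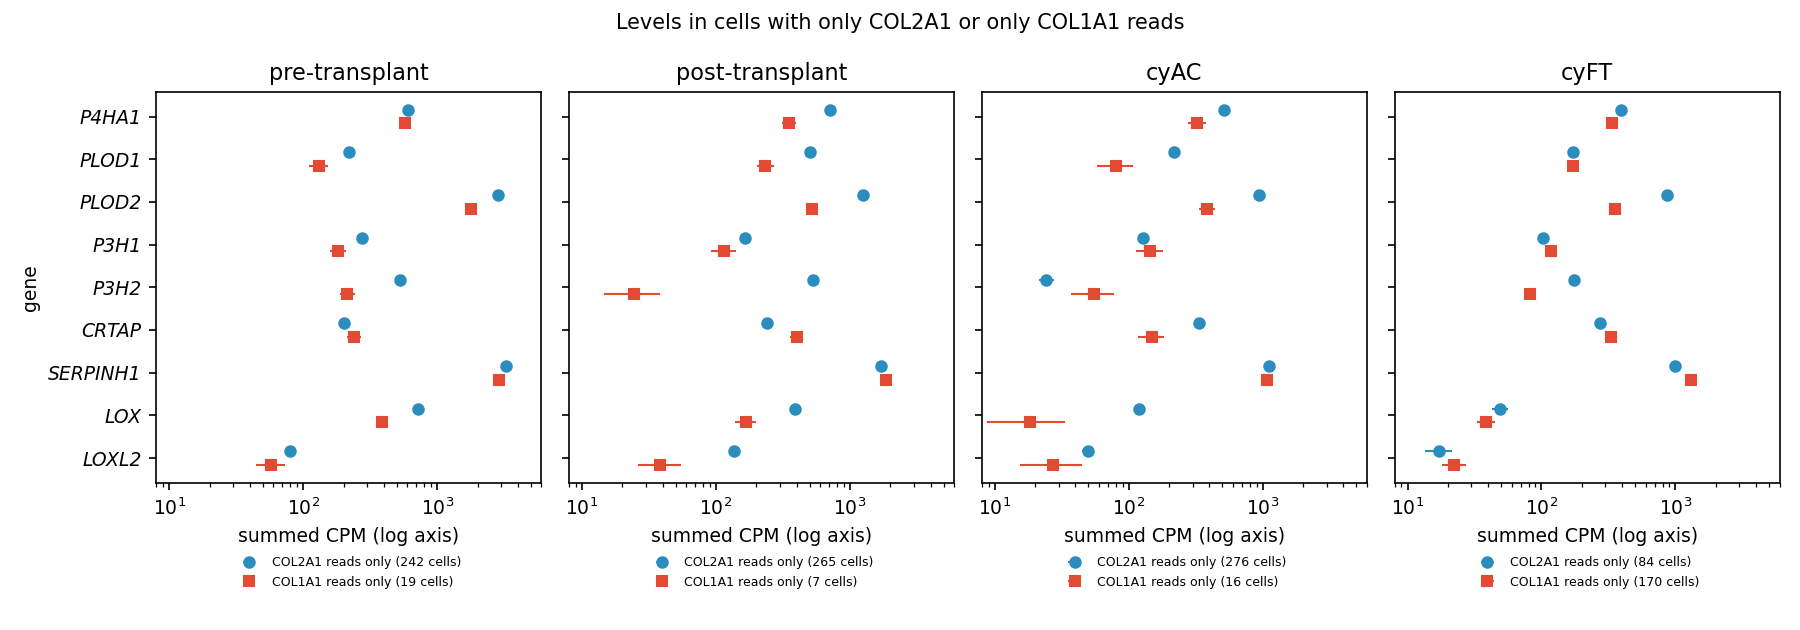
Summed CPM (log axis) of the 9 genes in cells with *COL2A1* reads and no *COL1A1* reads (circles) and in cells with *COL1A1* reads and no *COL2A1* reads (squares) of the 4 tissue samples, with exact Poisson 95% intervals. *PLOD2* is lower in the *COL1A1* cells of each sample. *SERPINH1* differs less between the groups, and most in cyFT, where it is higher in the *COL1A1* cells with a log2 ratio of 0.40.

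*PLOD2* was lower in the *COL1A1* cells of each of the 4 samples. In cyFT it was at 867 CPM in *COL2A1* cells (840 to 895) and 353 CPM in *COL1A1* cells (336 to 372), a log2 ratio of -1.29. The ratios were -0.67 in pre-transplant, -1.27 in post-transplant and -1.30 in cyAC cells, and -0.81 in the 254 and 2588 such cells of the differentiation matrix. *SERPINH1* had log2 ratios between -0.18 and 0.40 in the tissue samples. *P3H2* was at 534 and 24.4 CPM in post-transplant and 175 and 82.2 CPM in cyFT cells of the 2 groups, but in cyAC at 24.3 and 54.8 CPM. The *COL1A1* cells held only 19 *P3H2* reads in post-transplant cyiPS-Cart and 30 in cyAC, where the log2 ratio of 1.14 became -0.05 with the mean of per-cell CPM. *LOX* was likewise lower in the *COL1A1* cells of each sample, with log2 ratios from -2.64 in cyAC, where they held 10 *LOX* reads, to -0.36 in cyFT.

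Comparing only the *COL2A1* cells of the samples kept the order of most members. *P3H2* was 7.20-fold higher in such cells of cyFT than of cyAC (6.24 to 8.34), and 22.0-fold higher in those of post-transplant cyiPS-Cart than of cyAC (19.4 to 24.99). *PLOD2*, in contrast, had nearly the same level in them, 867 CPM in cyFT and 943 CPM in cyAC, a log2 ratio of -0.12 where all cells gave -0.66. *LOX* and *LOXL2* were lower in the *COL2A1* cells of cyFT, with log2 ratios of -1.25 and -1.47. Before and after transplantation, *PLOD1* had a log2 ratio of 1.19 and *PLOD2* of -1.19 in these cells. This restriction was chosen after the data had been seen, and used *COL2A1* and *COL1A1* reads alone. Over all cells, *COL1A2* gave 16.8% of collagen reads in post-transplant cyiPS-Cart and 2.42% in cyAC. *COL3A1* gave 22.5% and 6.39%. The *COL2A1* cells were not matched for these genes.

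Within a sample, the 106 cells with the highest share of collagen reads were set beside the 106 with the lowest, on the scale of reads per 1000000 non-collagen reads. In cyAC, where the median collagen shares were 11.6% and 4.51%, *LOXL2* was at 102 in the first and 9.58 in the second and *PLOD2* at 1226 and 581. The log2 ratios of the members there ran from -0.13 for *CRTAP* to 3.29 for *LOXL2*. The share of all genes that differed between these cells was not computed. For *LOXL2*, the 10% of cyAC cells with the most reads held 80.9% of them. In cyFT the ratios of the members ran from 0.18 for *P3H2* to 1.46 for *LOX*, with 1.00 for *SERPINH1*. The low-collagen cells held all 25 cyAC and 33 cyFT cells without reads of *COL2A1* and *COL1A1*, and all 16 cyFT cells with immune markers, whose part in these ratios was not tested. In pre-transplant cells they ran from -0.20 for *P3H2* to 0.68 for *P3H1*. Post-transplant cells, where the median collagen shares were 18.2% and 12.7%, had ratios from -0.18 for *P3H1* to 0.49 for *CRTAP*, with -0.09 for *PLOD2* and 0.31 for *LOXL2*. Over the 36 pairs of members, Spearman's rho across the 320 cells of a sample ran from -0.14 to 0.31, and from -0.12 to 0.33 with the collagen share. These cells share a library and a total, many counts are 0, and no p is given.

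The genes whose profile over the 4 tissue samples lay nearest to a member were taken from 3974 genes that reached 50 CPM, by the distance between centred log2(CPM + 1) values. The closest to *PLOD2* were *LDHB*, *MRPL48* and *XPNPEP1*, at distances from 0.20 to 0.31. For *SERPINH1* they were *PPP1R11*, *STT3A* and *PSMG3* (0.18 to 0.22), for *P3H1* *ACP1*, *VPS25* and *OSTC* (0.08 to 0.09), and for *CRTAP* *DGKE*, *PLIN3* and *GINM1* (0.09 to 0.10). For *P4HA1* they were *RPLP1*, *ALDH3A2* and *RPL5* (0.09 to 0.11), for *PLOD1* *COX7A2*, *CXXC5* and *RPL23* (0.09 to 0.18), and for *LOXL2* *STARD10*, *ROR2* and *DNER* (0.24 to 0.44). The profile of *P3H2* had no near match, and its closest were *RGS2*, *AMOT* and *COL5A2*, at 0.85 to 1.10. *COL5A2*, a chain of type V collagen, was at 3143, 2332, 337 and 1168 CPM in pre-transplant, post-transplant, cyAC and cyFT cells.

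Other genes of collagen processing were read from a list of 30, also chosen with earlier results of these data known. Of the 30, 24 were listed and 21 reached 10 CPM in one of the samples of each comparison. Of these 21, 20 were higher and none lower in pre-transplant cells than in cyiPSC, against 16.5% and 37.4% of all genes tested, with a median log2 ratio of 2.23. The largest were 5.69 for *COLGALT2*, a collagen galactosyltransferase (257 against 4.00 CPM), 3.92 for *PCOLCE*, an enhancer of procollagen cleavage (446 against 28.5 CPM), and 3.36 for *LOXL3*, a further lysyl oxidase (237 against 22.2 CPM). Across transplantation 2 were higher and 3 lower, near the 8.92% and 18.5% of all genes tested. *LOXL3* rose from 215 to 955 CPM, while *COLGALT2* went from 260 to 66.2 CPM and *SEC23A*, a coat protein of vesicles that leave the endoplasmic reticulum, from 245 to 64.7 CPM.

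In cyFT against cyAC 2 of the 21 were higher and 2 lower, where 12.2% and 3.92% of all genes tested were. *LOXL3* was at 236 CPM in cyFT and 780 CPM in cyAC, *ADAMTS2*, a procollagen N-proteinase, at 35.2 and 13.8 CPM, and the lysyl oxidase gene *LOXL1* at 75.4 and 31.1 CPM. In post-transplant cells against cyAC 5 were higher and 3 lower, where 10.7% and 15.8% of all genes tested were. *LOXL1* was at 108 and 31.1 CPM there, *PCOLCE2* at 224 and 744 CPM and *SEC23A* at 64.7 and 193 CPM. The lysyl oxidases thus did not move as a family, since *LOXL1* was higher and *LOX*, *LOXL2* and *LOXL3* were lower in cyFT than in cyAC.

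*P4HA1*, *PLOD2* and *LOX* are known targets of hypoxia-inducible factor, and a list of 13 other such genes, 11 of them listed, was read beside them. The list summed to 3605 CPM in cyiPSC and 4796 CPM in pre-transplant cells of the differentiation matrix, and to 5057, 6267, 3681 and 3659 CPM in pre-transplant, post-transplant, cyAC and cyFT cells. Of the 10 that could be compared between pre-transplant cells and cyiPSC, 3 were higher and 1 lower, against 16.5% and 37.4% of all genes tested. Between cyFT and cyAC none of the 10 that could be compared passed the threshold in either direction, where 12.2% and 3.92% of all genes did. In post-transplant cells 5 of 11 were higher and 1 lower than before transplantation, against 8.92% and 18.5% of all genes tested. Against cyAC 8 of 11 were higher and none lower, where 10.7% and 15.8% of all genes were. *PLOD2* had log2 ratios of -1.17 and 0.45, *LOX* of -0.87 and 1.74 and *P4HA1* of 0.23 and 0.54 in these comparisons. The part of oxygen supply in these values was not tested.

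The members were also counted cell by cell. After thinning, the median cell held reads of 4 of the 9 members in cyiPSC, 8 in pre-transplant, 7 in post-transplant and 5 in cyAC and cyFT cells, with cyiPSC thinned to another depth than the tissue samples. All 9 were found together in 15.4% of thinned pre-transplant cells and 10.6% of post-transplant cells of the tissue matrix, against 0.325% in cyAC and 0.694% in cyFT. At most 3 were found in 11.0% of cyAC and 22.9% of cyFT cells, and in 0.313% and 1.88% of pre- and post-transplant cells. Before thinning, the median cell held reads of 3765 genes in pre-transplant, 2594.5 in post-transplant, 2284 in cyAC and 2300 in cyFT. The same counts for all genes in thinned cells were not made, and the part of gene number in these shares was not tested.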

How the data were processed

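TAS-Seq read counts per gene and cell came from 3 transcriptome libraries that hold 5 conditions, and the 3 hashtag libraries were not used. To make the deposited counts, the authors aligned reads with Bowtie2 (2.4.2 per the labels) to Ensembl transcripts of the cynomolgus monkey, split pooled samples by hashtag, set low counts of highly expressed genes to 0 and filtered on mitochondrial share. The tissue matrix was reduced to 320 cells per condition by them. No molecule counting is described, so the counts were taken as reads. The labels also name the build GRCh38, whose role is not given in the sources used here, and no coordinates are printed.

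Cells were assigned by the prefix of their names. Reads were summed per sample, scaled to CPM and compared as log2(CPM + 1) where a gene reached 10 CPM in one of the samples, in Python 3.11.15 with numpy 2.4.6 and scipy 1.17.1. Intervals are exact at 95%. Simulated data with 200 changed genes among 7016, made for post-transplant over pre-transplant, gave the right direction for 100% of them with a median absolute error of 0.0561. They were Poisson draws from summed reads, without variation between cells, animals or libraries, and so checked the arithmetic only. No doublet caller was run. TMM factors came from edgeR 4.0.16. Other alternatives were other denominators, cell filters, pseudocounts, minimum levels, thresholds, read minimums and thinning. Named were all members, the 3 largest log2 ratios of the processing list in each comparison and the 3 nearest profiles, which for *LOX* are not reported here. The members and lists were chosen with earlier results of these data known.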

Additional observations from a re-analysis of the deposited data

How the results depend on the processing

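All 9 members stayed higher in pre-transplant cyiPS-Cart than in cyiPSC under each alternative, and the 4 called in post-transplant over cyAC kept their call under every setting that held the threshold of 1. Across transplantation, TMM scaling left 0 members lower, a threshold of 0.5 gave 2 higher and 4 lower, and one of 1.5 gave 0 and 0. In cyFT over cyAC, 1 member instead of 2 was lower with the mean of per-cell CPM, a pseudocount of 10, a minimum of 50 CPM or without the deepest 5% of cells, and 0 at a threshold of 1.5, which left 2 members higher in post-transplant over cyAC. The cause was not tested.

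The log2 ratios of member reads per collagen read were, for pre-transplant over cyiPSC, post- over pre-transplant, cyFT over cyAC and post-transplant over cyAC, -4.26, -1.67, -0.40 and -0.29 with fibrillar collagens only and -4.68, -1.71, 0.67 and -0.45 as a mean over cells. Leaving out the deepest cells gave -3.81 for the first. The stricter cell filter gave -1.64 for the second and -0.15 for the last, and all pre-transplant cells gave -1.70 for the second. The 2 alternatives chosen after the data had been seen gave -4.07 for the first and -0.31 for cyFT over cyAC without cells that held 3 or more genes of another cell type list, and -1.63, 0.11 and -0.0602 for the last 3 comparisons in *COL2A1* cells. The sign of cyFT over cyAC thus depended on how cells were weighed and chosen. TMM scaling moved the median of all genes from -0.61 to 0.09 in pre-transplant over cyiPSC, from -0.25 to -0.02 across transplantation and from 0.19 to -0.00079 in cyFT over cyAC. No paired analysis was possible because each condition was 1 sample.

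With 1 sample per condition, animals and conditions cannot be told apart, nor can library and condition except in cyiPSC with pre-transplant cells and cyAC with cyFT. Counts of reads without molecular identifiers make the intervals too narrow. Low levels limit *LOXL2* and *P3H2* in cyAC, where 524 and 291 reads were counted.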
